A study of Mus musculus with 12 samples.

Results

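The adaptors that bind phosphorylated tyrosines of receptor kinases, or that bind those adaptors in turn, were examined in mammary tumours of 6 mouse strains driven by altered forms of ErbB2. The members were 10 genes (Grb2, Shc1, Crk, Crkl, Nck1, Gab1, Gab2, Dok1, Dok2 and Sos1), found as 16 of the 41174 probes by their name in the array design or by the current symbol of their accession. All 10 were among the 28691 genes tested, each through its brightest probe, and all 16 probes were above background in the tumour channel on 24 of 24 arrays. None was saturated or marked as a poor spot on any array.

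As background, an activated receptor tyrosine kinase phosphorylates tyrosines in its own tail, and proteins with SH2 or PTB domains dock on them. Grb2 brings the exchange factor Sos1 to the membrane, where Sos1 loads Ras with GTP and starts the ERK cascade. Shc1 is phosphorylated at the receptor and then binds Grb2, the Gab proteins are docking platforms reached through Grb2, and the Dok proteins restrain Ras signalling. In this receptor series the site called YB binds Grb2 directly and the site called YD binds Shc, so the comparison asks whether the RNA of the adaptors varies with the site that the receptor keeps.

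The strains YB, YC, YD and YE each carry 1 tail tyrosine on a receptor that otherwise lacks the autophosphorylation sites, NYPD carries the receptor without these sites, and the parental strain NDL2-5, written NDL25 below, carries the neu NDL receptor. In all 6 strains the activated rat neu transgene is driven by the MMTV promoter, which is active in mammary epithelium, and all mice were females that had borne tumours for 6 weeks. The labels give neither the age nor the number of transgenic lines behind a strain. Each strain gave 10 tumours, whose RNA was mixed into 2 pools of 5, and each of the 12 pools was set against Universal Mouse Reference RNA, a commercial mixture from mouse cell lines, on 2 Agilent arrays with the dyes exchanged. Values below are log2 ratios of tumour over reference, 1 per pool, with pool 1 before pool 2. A difference between strains is a log2 difference with its moderated standard error (SE) or 95% interval, n = 2 pools in each strain. A p-value measures only the spread between such pools and not that between single tumours. A difference was called where its Benjamini-Hochberg adjusted p, over all 28691 genes in limma, was under 0.05.

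Tumour signals had medians of 364.8 to 763.5 intensity units on the 24 arrays, with local background at 39 to 64, and the number of pools limits the precision. Luminal and milk protein genes, markers of mammary epithelium, averaged a log2 ratio of 2.31 to 3.25 in the 12 pools. Erbb2, the gene of the transgene, stood at 1.85 in YB pool 1 and 1.64 in NDL25 pool 1, against 3.42 to 4.19 in the other 10 pools on its brightest probe. Neither of the other 2 Erbb2 probes set both of these pools apart. On 1 of them YB pool 1 was at 0.24 and NDL25 pool 1 at -0.01, the lowest of the 12, against 0.05 to 0.37 in the other 10. The other read 0.81 in YB pool 1 and 0.97 in NDL25 pool 1, against 0.45 to 1.03. How far each probe reads the rat transgene was not tested. Markers of salivary gland averaged 4.22 to 4.51 in the YB pools, against 0.38 to 0.85 in the other 10 pools. Arrays were extracted in 3 sessions. YD and YE lay in session 1, YB and NDL25 in session 2, YC in both, and NYPD alone in session 3, so a difference to NYPD and a difference between sessions cannot be told apart.

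No member was called by the F test over the 6 strains, where 3.19% of all genes were called, and none by the F test over YB, YC, YD and YE, where 2.7% of all genes were called. At an unadjusted p under 0.05 limma counted 3 of the 10 in each, against 21.3% and 18% of all genes. Over the 11 contrasts 2 of 110 tests of members were called, a share of 1.82% against 1.74% over all genes. Shc1 was lower in YB than in NYPD tumours, and Gab2 was higher in YB than in the other single-site strains. The direct Grb2 site did not come with a called difference in Grb2, nor the Shc site with one in Shc1. Grb2 differed by 0.30 between YB and the mean of YC, YD and YE (95% interval -0.12 to 0.73, adjusted p = 0.362). Shc1 differed by 0.24 between YD and the mean of YB, YC and YE (95% interval -0.10 to 0.58, adjusted p = 0.83).

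**Figure D1:**
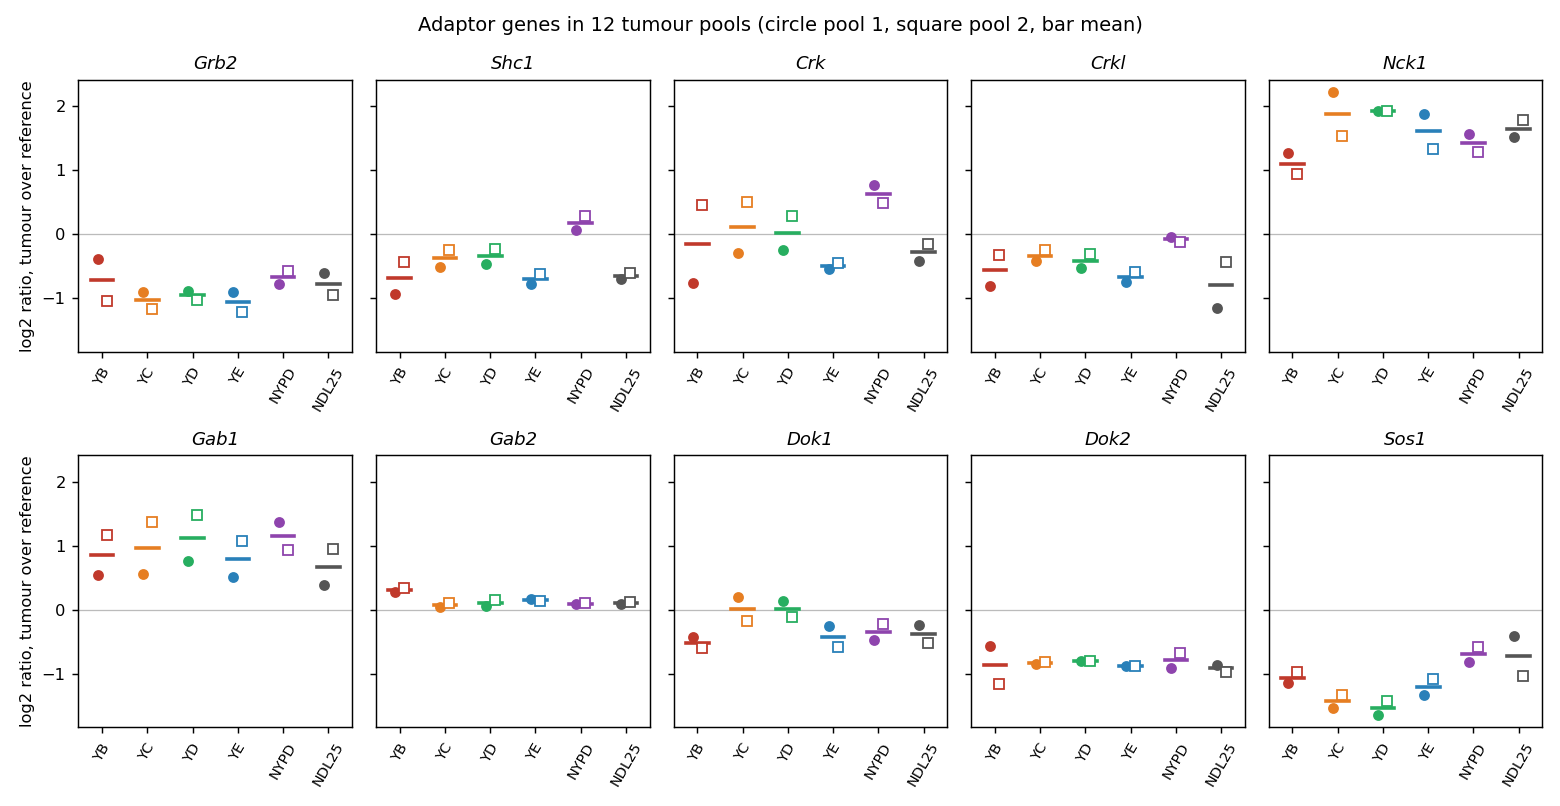
Log2 ratio of tumour over reference (vertical axis) of the 10 adaptor genes in YB, YC, YD, YE, NYPD and NDL25 tumours. The circle is pool 1, the square pool 2 and the bar their mean. On the brightest probe of each gene, Shc1 and Crkl sit highest in both NYPD pools, Gab2 highest in both YB pools and Nck1 lowest in both YB pools.

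Shc1, the PTB and SH2 adaptor that links receptors to Grb2, stood highest in the tumours without receptor sites. Its gene lies at chr3:89418551-89430029 (GRCm38.p6, RefSeq). Only 1 probe read Shc1, so no other probe could be compared with it. The log2 ratio was -0.94 and -0.43 in the YB pools, -0.51 and -0.25 in YC, -0.46 and -0.23 in YD, -0.78 and -0.61 in YE, 0.06 and 0.29 in NYPD and -0.69 and -0.60 in NDL25. Both NYPD pools lay above all 10 other pools, a pattern that 4.21% of all genes showed. Below NYPD the strain means ran in the order YD, YC, NDL25, YB and YE, and the pools of neighbours in that order overlapped in 3 of the 4 steps. The exception was YC over NDL25, whose ranges did not overlap, a split not counted over all genes. Their difference of 0.27 was not called (SE 0.18, adjusted p = 0.627). Shc1 was 1.82-fold lower in YB than in NYPD tumours (log2 difference -0.86, SE 0.18, adjusted p = 0.0365), in a contrast where 5.1% of all genes were called. The call was lost when YB pool 1 was left out (-0.61, adjusted p = 0.0836) and in 10 of the 11 other single omissions. The difference was as large between YE and NYPD (-0.87, SE 0.18, adjusted p = 0.0571, 1.88% of all genes called), and NYPD exceeded NDL25 by 0.82 (SE 0.18, adjusted p = 0.0784, 1.04% of all genes called). Neither was called over the 12 pools, but both were without either YB pool, with adjusted p of 0.0278 for YE against NYPD and 0.039 for NYPD against NDL25. YC and YD lay 0.55 and 0.52 below NYPD with adjusted p of 0.335 and 0.35, in contrasts where 0.0174% and 0.0105% of all genes were called. These contrasts share the 2 NYPD pools.

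In bulk tumours fewer cells of a type and less RNA per cell cannot be told apart. Some markers of other cells also differed between NYPD and other pools. The 4 leukocyte markers averaged -1.65 to -1.09 in the YB pools and -2.09 to -1.91 in YE, against -1.04 in each NYPD pool and -1.83 to -1.78 in NDL25. The leukocyte antigen Cd53 was 1 of the 4 called in YB against NYPD (log2 difference -0.81, adjusted p = 0.0228), where 5.1% of all genes were called. In that contrast 1 of the 4 B cell markers was also called lower, and 5 of the 6 salivary gland markers were called higher. In YE against NYPD 1 leukocyte, 1 macrophage, 1 endothelial and 2 luminal and milk markers were called lower, where 1.88% of all genes were called. The 5 macrophage markers averaged 0.54 to 1.17 in YB and -0.20 to 0.04 in YE, against 0.73 to 0.91 in NYPD and 0.29 to 0.34 in NDL25. The 5 fibroblast markers averaged -0.97 to 0.03 in YB and -2.15 to -1.52 in YE, against -0.67 to -0.07 in NYPD and -1.42 to -1.28 in NDL25. T cell markers averaged -0.86 to -0.63 in YB, -0.76 to -0.68 in YE, -0.68 to -0.59 in NYPD and -0.81 to -0.68 in NDL25. B cell markers averaged -1.54 to -1.37 in YB, -1.38 to -1.28 in YE, -1.28 to -1.07 in NYPD and -1.51 to -1.39 in NDL25. Endothelial markers averaged 1.54 to 1.66 in YB, 1.01 in each YE pool, 1.36 to 1.63 in NYPD and 1.34 to 1.53 in NDL25. Their part in the Shc1 difference was not tested.

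Promoter sequence is shown for Shc1 and Crkl, the members whose NYPD pools both lay above all others on the brightest probe. The other Crkl probe, given below, did not show this. RefSeq promoter windows matched 7 of the 10 members, and Shc1 has 2 annotated starts, the second inside the gene. Each line gives the 250 bases before a start on the plus strand of GRCm38.p6, with capitals for any match, on either strand, to the GC box GGGCGG, the CCAAT box CCAAT, the ETS core CCGGAAG or the AP-1 site TGANTCA, where N is any base.
Shc1 first start, chr3:89418301-89418550: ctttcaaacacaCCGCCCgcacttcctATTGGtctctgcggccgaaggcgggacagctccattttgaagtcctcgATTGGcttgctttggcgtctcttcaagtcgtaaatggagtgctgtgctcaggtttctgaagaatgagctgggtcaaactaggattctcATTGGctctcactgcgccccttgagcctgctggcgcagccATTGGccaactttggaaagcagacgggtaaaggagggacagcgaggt
Shc1 inner start, chr3:89421371-89421620: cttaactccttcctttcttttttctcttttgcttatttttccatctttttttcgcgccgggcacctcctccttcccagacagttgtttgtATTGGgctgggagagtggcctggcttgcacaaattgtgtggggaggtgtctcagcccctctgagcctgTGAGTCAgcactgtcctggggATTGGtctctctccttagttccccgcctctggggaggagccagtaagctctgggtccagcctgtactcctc
Crkl, chr16:17451735-17451984: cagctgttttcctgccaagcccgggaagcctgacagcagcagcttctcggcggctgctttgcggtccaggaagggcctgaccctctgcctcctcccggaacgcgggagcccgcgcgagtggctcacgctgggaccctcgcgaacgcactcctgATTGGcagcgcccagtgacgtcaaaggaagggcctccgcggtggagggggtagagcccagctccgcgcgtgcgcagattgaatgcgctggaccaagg
No 2 of these matches overlap. The first Shc1 window holds 4 CCAAT boxes, all on the minus strand, and 1 GC box. The inner Shc1 window holds 2 CCAAT boxes and 1 AP-1 site, and the Crkl window holds 1 CCAAT box. Of 32817 such windows, 33.83% hold a CCAAT box, 32.72% a GC box, 6.753% an AP-1 site and 6.905% an ETS core, and 0.835% hold at least 4 CCAAT boxes. A match is a description of letters and not a binding site.

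Crk and Crkl are SH2-SH3 adaptors that carry signals to the exchange factors Rapgef1 and Dock1, and their brightest probes followed Shc1 in standing highest on average in NYPD. Crkl (chr16:17451985-17487440) had a log2 ratio of -0.80 and -0.33 in YB, -0.42 and -0.24 in YC, -0.53 and -0.31 in YD, -0.74 and -0.59 in YE, -0.05 and -0.11 in NYPD and -1.14 and -0.44 in NDL25. Both NYPD pools lay above the other 10, as for 4.21% of all genes. In the order of means NYPD came first, above YC without overlap, and then YC, YD, YB, YE and NDL25 each overlapped the next. Its largest difference was NYPD over NDL25 (0.71, SE 0.24, adjusted p = 0.199), and NDL25 pool 1 was the lowest of the 12. Without that pool the difference was 0.36 (adjusted p = 0.624).

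The other Crkl probe gave a different picture. It read 0.29 and 0.44 in YB, 0.04 and 0.08 in YC, 0.11 and 0.05 in YD, 0.13 and 0.10 in YE, -0.01 and 0.01 in NYPD and 0.03 and 0.14 in NDL25. Both NYPD pools lay below all others on it, a pattern that 4.83% of all genes showed on their brightest probes. Where every probe was fitted as its own row, this probe was higher in YB than in NYPD (log2 difference 0.36, SE 0.06, adjusted p = 0.0265), while the brightest probe differed by -0.48 the other way. No direction can therefore be given for Crkl as a gene.

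Crk (chr11:75679194-75708428) had the largest pooled SD within strains of the 10 members (0.46). It stood at -0.77 and 0.46 in YB, -0.28 and 0.50 in YC, -0.25 and 0.28 in YD, -0.54 and -0.44 in YE, 0.77 and 0.49 in NYPD and -0.42 and -0.15 in NDL25. In YB, YC and YD pool 1 was below 0 and pool 2 above it, and YC pool 2 reached the lower NYPD pool. The mean order was NYPD, YC, YD, YB, NDL25 and YE. Only the step between NDL25 and YE showed no overlap, a split not counted over all genes. YE lay 1.12 below NYPD (SE 0.41, adjusted p = 0.195), but 0.37 below it as the mean of all Crk probes (adjusted p = 0.208). The other 2 Crk probes stayed between -0.30 and 0.37 in all pools and did not follow the brightest one.

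**Figure D2:**
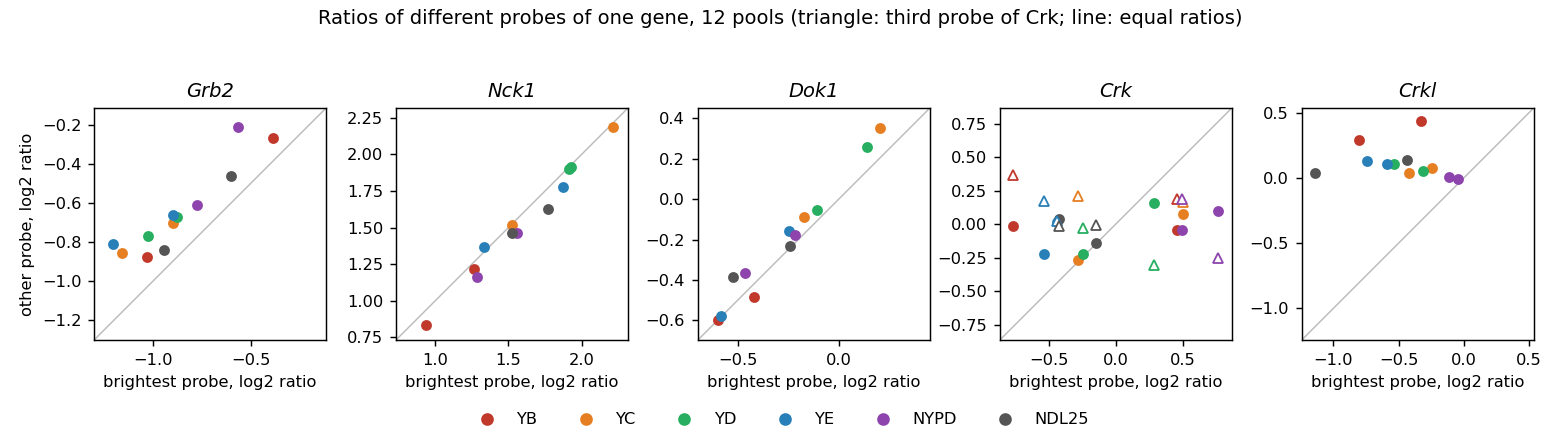
Log2 ratio on the brightest probe (horizontal axis) against the other probes of the same gene (vertical axis) in 12 pools, coloured by strain, with a line of equal ratios. Grb2, Nck1 and Dok1 probes rise together, while Crk and Crkl probes do not, and the 2 YB pools are highest on the other Crkl probe.

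Grb2, the SH2-SH3 adaptor that binds Sos1, was below the reference in all 12 pools. Its gene is at chr11:115644045-115708597. The log2 ratio was -0.38 and -1.03 in YB, -0.90 and -1.16 in YC, -0.88 and -1.03 in YD, -0.90 and -1.20 in YE, -0.78 and -0.57 in NYPD and -0.60 and -0.94 in NDL25. The YB pools spanned most of the range of the 12, and all strains overlapped a neighbour in the order NYPD, YB, NDL25, YD, YC and YE. The smallest p was for YE against NYPD (-0.38, SE 0.23, adjusted p = 0.395). YB, the strain with the Grb2 site, differed from NYPD by -0.04 (95% interval -0.56 to 0.49) and from NDL25 by 0.06 (95% interval -0.46 to 0.59). The other Grb2 probe had strain means of -0.57 for YB, -0.78 for YC, -0.72 for YD, -0.74 for YE, -0.41 for NYPD and -0.65 for NDL25, with NYPD and YB again the least negative.

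Sos1, the Ras exchange factor carried by Grb2, was lowest in YC and YD. Its gene lies at chr17:80393752-80480453. The log2 ratio was -1.14 and -0.97 in YB, -1.52 and -1.33 in YC, -1.64 and -1.42 in YD, -1.33 and -1.08 in YE, -0.81 and -0.57 in NYPD and -0.40 and -1.02 in NDL25. All 4 YC and YD pools lay below all NYPD and NDL25 pools, and YE pool 1 fell within the YC range. How many of all genes show that split was not counted. The means ran in the order NYPD, NDL25, YB, YE, YC and YD, and each strain overlapped the next. YD differed from NYPD by -0.84 (SE 0.20, adjusted p = 0.191) and from NDL25 by -0.81 (SE 0.20, adjusted p = 0.23), and neither was called. The YD and NYPD difference was -1.45 with the authors' deposited ratios (adjusted p = 0.131) and -0.33 as a mean of all probes (adjusted p = 0.334). A probe listed under an older synonym of Sos1, outside the 16, stayed between -0.12 and 0.21 and did not show this order.

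Sos2, the close relative of Sos1, was the one paralogue called by the F test over the 6 strains (adjusted p = 0.0262). It had log2 ratios of 0.43 and 0.36 in YB, 0.11 and 0.20 in YC, 0.16 and 0.25 in YD, 0.49 and 0.43 in YE, 0.62 and 0.50 in NYPD and 0.67 and 0.68 in NDL25. YC and YD were lowest here too, with all 4 pools below the other 8, a split not counted over all genes. In single contrasts YC lay 0.52 below NDL25 (SE 0.06, adjusted p = 0.0605) and YD 0.47 below it (SE 0.06, adjusted p = 0.0741). Of the 13 paralogues listed, 12 were tested, and Dok4, Dok7 and Shc3 followed Sos2 by p with F tests at adjusted p of 0.206 or above.

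Nck1, an SH2-SH3 adaptor that couples receptors to the actin regulators Wasl and Pak1, was above the reference in all pools and lowest in YB. Its gene is at chr9:100494302-100546134. It had log2 ratios of 1.27 and 0.94 in YB, 2.22 and 1.53 in YC, 1.92 and 1.92 in YD, 1.87 and 1.34 in YE, 1.56 and 1.28 in NYPD and 1.52 and 1.77 in NDL25. Both YB pools lay below all others, as for 4.36% of all genes, but only just: YB pool 1 was at 1.27 and NYPD pool 2 at 1.28. The other strains ran in the order YD, YC, NDL25, YE and NYPD, each overlapping the next. YB differed from the mean of YC, YD and YE by -0.70 (SE 0.21, adjusted p = 0.0943), and was not called, in a contrast where 7.15% of all genes were. It differed from NDL25 by -0.54 (SE 0.26, adjusted p = 0.342). The other Nck1 probe gave -0.75 for YB against the mean of YC, YD and YE (SE 0.20, adjusted p = 0.0717). A probe listed under an older synonym, outside the 16, gave -0.20 (SE 0.28, adjusted p = 0.719), and its lowest pools were in YC, YD and YE. With session as a block, estimated only from the gap between the YC pools, the brightest probe gave -1.73 (adjusted p = 0.62).

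Gab1 and Gab2 are docking proteins that, once phosphorylated, bind the phosphatase Ptpn11 and PI 3-kinase. Gab1 (chr8:80764431-80880519) was above the reference in all pools, at 0.54 and 1.17 in YB, 0.56 and 1.38 in YC, 0.76 and 1.47 in YD, 0.51 and 1.07 in YE, 1.37 and 0.94 in NYPD and 0.39 and 0.96 in NDL25. Pool 2 exceeded pool 1 in all strains except NYPD, and every strain overlapped every other. The smallest p was for NYPD over NDL25 (0.48, SE 0.39, adjusted p = 0.617), and the difference ran from 0.20 without NDL25 pool 1 to 0.77 without NDL25 pool 2.

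Gab2 (chr7:97081751-97308951) had log2 ratios near 0 outside YB. They were 0.28 and 0.34 in YB, 0.05 and 0.11 in YC, 0.06 and 0.15 in YD, 0.17 and 0.14 in YE, 0.09 and 0.11 in NYPD and 0.10 and 0.12 in NDL25. Both YB pools were above all others, as for 9.46% of all genes. YE lay above NYPD, YC and NDL25 without overlap, a pattern not counted over all genes. Gab2 was 1.15-fold higher in YB than in YC, YD and YE (log2 difference 0.20, SE 0.05, adjusted p = 0.0408), where 7.15% of all genes were called. It lay 0.22 above NYPD (SE 0.06, adjusted p = 0.0706) and 0.20 above NDL25 (SE 0.06, adjusted p = 0.0976, 3.92% of all genes called). With YB and NDL25 fitted alone within their shared session, the adjusted p was 0.351 at the same difference.

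The Gab2 call rests on a dim probe. Its tumour signal was 136 to 231 intensity units, and the offset added before the logarithm shrinks ratios at that level. YB and the other single-site strains lay mostly in different sessions. With session as a block, estimated only from the gap between the YC pools, the difference was 0.28 (adjusted p = 0.693). The call was also lost with each of the 12 pools left out in turn (adjusted p 0.0517 to 0.183), and with median centring the difference was 0.15 (adjusted p = 0.213). With the scanner software's processed signals it was 0.43 (adjusted p = 0.0177), and from the authors' deposited table it came to 0.14 (adjusted p = 0.173). In the same contrast 5 of 6 salivary gland, 3 of 5 macrophage, 2 of 11 luminal and milk and 1 of 4 endothelial markers were also called higher in YB. The share called over all genes was 7.15%. The part of these markers in the Gab2 difference was not tested.

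Dok1 and Dok2 are PTB adaptors that recruit the Ras GTPase-activating protein Rasa1. Dok1 (chr6:83030932-83033495) was at -0.42 and -0.60 in YB, 0.20 and -0.17 in YC, 0.14 and -0.11 in YD, -0.25 and -0.58 in YE, -0.46 and -0.22 in NYPD and -0.24 and -0.52 in NDL25. The 4 YC and YD pools were the 4 highest, and the YB pools were below them all, a pattern not counted over all genes. The means ran in the order YD, YC, NYPD, NDL25, YE and YB. YB differed from the mean of YC, YD and YE by -0.38 (SE 0.15, adjusted p = 0.167) and was not called. The other Dok1 probe gave -0.50 (adjusted p = 0.112). With session as a block, again estimated only from the gap between the YC pools, the difference was -0.94 (adjusted p = 0.683). YD and YC each exceeded NDL25 by 0.40 (SE 0.18), with adjusted p of 0.51 and 0.468, in contrasts where 0.00697% of all genes were called in each. Dok2 (chr14:70765889-70778494), which is mainly known from blood cells, had the smallest span of strain means of the 10. It read -0.57 and -1.16 in YB, -0.84 and -0.81 in YC, -0.80 and -0.80 in YD, -0.87 and -0.88 in YE, -0.91 and -0.67 in NYPD and -0.86 and -0.96 in NDL25. Its strain means spanned 0.12, less than the gap between the YB pools, and its smallest p was for NYPD over NDL25 (0.12, SE 0.17, adjusted p = 0.795).

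**Figure D3:**
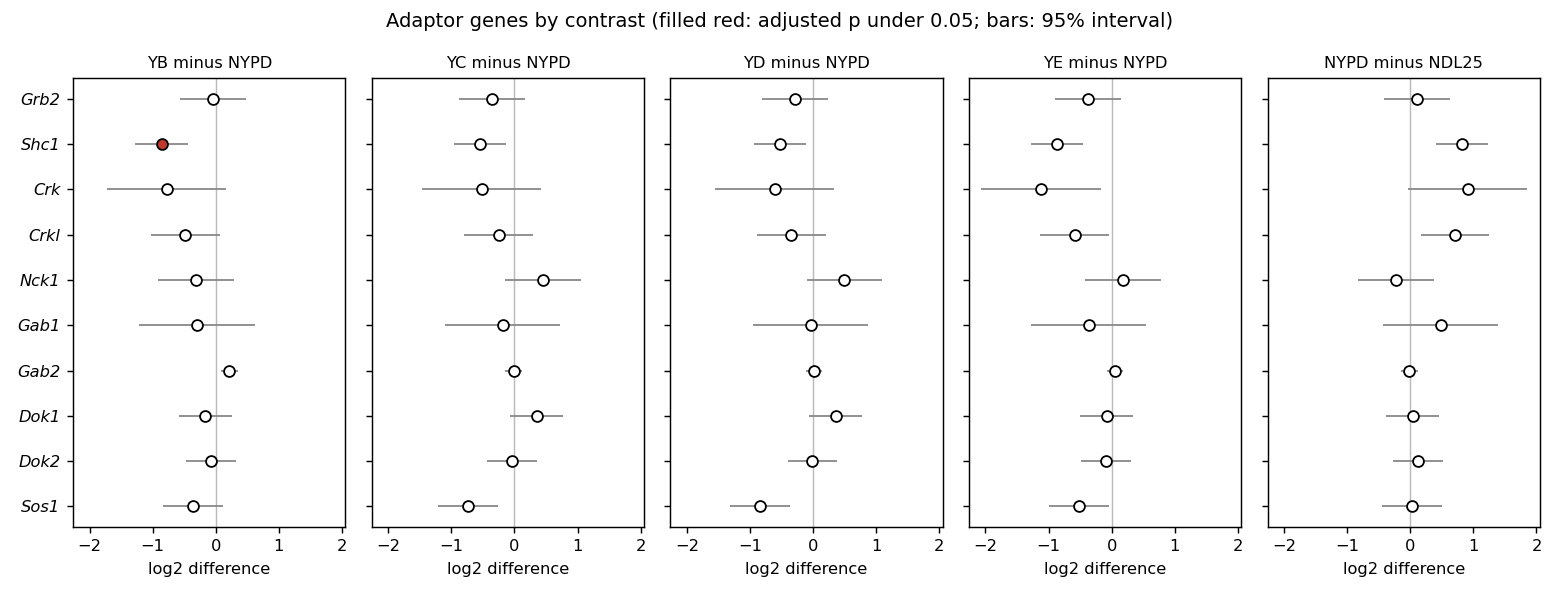
Log2 difference (horizontal axis) of each adaptor in YB, YC, YD and YE minus NYPD and in NYPD minus NDL25, with 95% intervals. The filled point marks an adjusted p under 0.05, which is Shc1 in YB minus NYPD at -0.86. The intervals of Crk and Gab1 are the widest and that of Gab2 the narrowest.

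The contrasts with NYPD share its 2 pools, which had a session of their own, so their values are not independent of each other. In YB minus NYPD 9 of 10 differences were negative, with a median of -0.31 against 0.00 over all genes. The counts and medians here take Crk and Crkl by their brightest probes, which their other probes did not follow. In YE minus NYPD 8 of 10 were negative with a median of -0.37 against 0.01, and 4 members had an unadjusted p under 0.05, against 19.4% of all genes. The medians were -0.22 in YC minus NYPD and -0.16 in YD minus NYPD, with 2 members in each at an unadjusted p under 0.05, against 10.3% and 10.8% of all genes. Against NDL25 the medians were 0.06 for YB, 0.25 for YC, 0.29 for YD, -0.04 for YE and 0.11 for NYPD, and -0.01 to 0.00 over all genes. No member was called against NDL25, where 0% of all genes were called in YE. None was called in YD against the other single-site strains, where 0.0593% of all genes were called. By unadjusted p under 0.05 limma counted 1 member in each of YB, YC, YD and YE against NDL25, where the shares of all genes were 17.3%, 11.3%, 10.4% and 7.57%. It counted 2 in NYPD against NDL25 (15.6% of all genes) and 0 in YD against the others (7.72% of all genes).

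Among other docking and adaptor proteins 10 of 11 were tested, and Grb10, an adaptor that dampens insulin receptor signalling, was the gene called by both F tests (adjusted p = 0.0161 over 6 strains and 0.0087 over the 4 single-site strains). Its log2 ratio was -1.64 and -1.30 in YB, 0.25 and 0.24 in YC, -0.40 and -0.10 in YD, 0.16 and 0.16 in YE, 0.02 and -0.24 in NYPD and -0.61 and -0.26 in NDL25. Both YB pools lay well below the other 10, and 4.36% of all genes had both YB pools below the others. It was 2.87-fold lower in YB than in the other single-site strains (log2 difference -1.52, SE 0.14, adjusted p = 0.00139), 2.55-fold lower than in NYPD (adjusted p = 0.00794) and 2.05-fold lower than in NDL25 (adjusted p = 0.019). Of its other probes, 1 was at -1.50 and -1.14 in YB but split from 0.98 to -1.20 between the YE pools, and it was not called in YB against the other single-site strains (adjusted p = 0.259). Another stayed between -0.02 and 0.18 in all pools.

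Bcar1, the scaffold that binds Crk, averaged -0.61 in NYPD and -0.94 in NDL25, a rise of 0.33 (SE 0.06, adjusted p = 0.0483), and was 0.32 lower in YE than in NYPD (adjusted p = 0.0413). Grb7, an adaptor encoded next to Erbb2, averaged 1.89 in NYPD and 2.66 in NDL25 and was not called (log2 difference -0.78, SE 0.15, adjusted p = 0.062). Sh2b3 was the remaining gene of the list with a small F test p and was not called (adjusted p = 0.123).

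All 26 listed partners and effectors were tested, among them Raf, MEK and ERK genes and PI 3-kinase subunits. None was called by either F test, where 3.19% and 2.7% of all genes were called. At an unadjusted p under 0.05 there were 6 and 4 of the 26, against 21.3% and 18% of all genes. Ptpn11, the phosphatase bound by Gab proteins, was the exception in single contrasts. It stood at 0.26 and 0.36 in YB, -0.04 and -0.19 in YC, 0.06 and 0.02 in YD, 0.15 and 0.00 in YE, -0.06 and -0.25 in NYPD and 0.32 and 0.40 in NDL25. The YB and NDL25 pools were the 4 highest, and the share of all genes with this pattern was not counted. Ptpn11 was lower in NYPD than in NDL25 (log2 difference -0.51, SE 0.09, adjusted p = 0.0494), higher in YB than in NYPD (0.46, SE 0.09, adjusted p = 0.0297) and higher in YB than in YC, YD and YE (0.31, SE 0.07, adjusted p = 0.046). Vav2 and Pak1 were among the next by F test, with adjusted p of 0.0842 and 0.125.

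**Figure D4:**
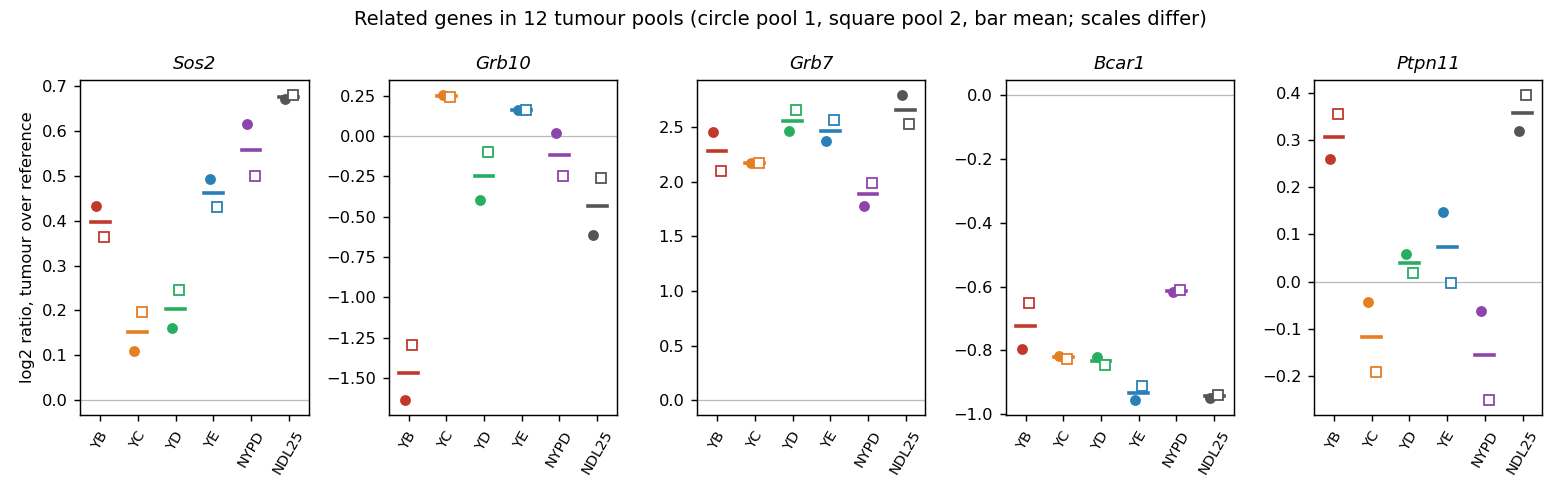
Log2 ratio of tumour over reference (vertical axes, on different scales) of Sos2, Grb10, Grb7, Bcar1 and Ptpn11 in YB, YC, YD, YE, NYPD and NDL25 tumours, circle pool 1, square pool 2, bar mean. Grb10 is lowest in both YB pools, Sos2 lowest in YC and YD, and Ptpn11 highest in YB and NDL25.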

How the data were processed

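Each of the 12 pools was hybridised on 2 two-colour arrays with the dyes exchanged. Per the file headers, Agilent Feature Extraction wrote the deposited scanner files, with spot and local background intensity per channel, processed intensity and 0 or 1 flags. A log ratio per pair, read here as log2, was deposited as well. The base is an assumption, and RMA, limma and R 2.3.0 appear in the submitters' processing notes without details. Deposited ratios correlated with those computed here at r = 0.983 to 0.988 across probes, with slopes of 1.02 to 1.37 by pool, which gave their direction, and their medians lay between -0.00222 and 0.0147.

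In limma 3.58.1 (R 4.3.3, with data.table at version 1.17.8), background was corrected by normexp (offset 50) and dyes by loess. The labels do not say which channel held the tumour, so its dye was read from luminal and milk genes. Csn2 and Lalba pointed to it, and Afp to the reference channel, on 24 of 24 arrays. Pairs were averaged. Marked spots were dropped from their array before averaging, so a pool could keep the value of a single array. Probes above background on fewer than 4 arrays (325) and those that marked spots left without a value in some pool (2) were left out. The brightest probe stood for a gene. One limma model with 6 strain means gave 2 F tests and 11 contrasts, with 6 residual degrees of freedom. Gene names and sequences came from RefSeq (GRCm38.p6), and no build of the array design was used here.

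All members are named, with their F tests, called contrasts or else the contrast of smallest p, and up to 4 genes per related list; 1 gene that this rule selects is not reported here. Members and lists were chosen with earlier results of these data known. On simulated data with the layout of YB against NYPD, over 28691 genes, limma called 72 of 100 genes shifted by 1 log2 unit. It called 91 of 100 shifted by 2, with 16 false calls. The shifted genes were drawn from all genes, whose median SE was 0.11 in NYPD minus NDL25. Members had larger SE in YB minus NYPD, from 0.17 for Dok2 to 0.41 for Crk, except Gab2 (0.06). The simulated shares therefore do not give the recovery for these members. Alternatives changed background correction, normalisation, filters, probe choice, source of ratios, blocks and pools.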

Additional observations from a re-analysis of the deposited data

How the results depend on the processing

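Under 22 alternative settings, 240 of 280 counts of called members were unchanged, most of them at 0. Of 640 values of single members, 610 kept their side of the threshold and, for contrasts, their direction. Most of these values were not called to begin with, and F tests have no direction. The called differences held less often. Shc1 in YB minus NYPD held in 8 of 20 settings, and Gab2 in YB against the other single-site strains in 6 of 22. The settings that leave out both pools low on the brightest Erbb2 probe (low-Erbb2 pools) and the fits within sessions were chosen after seeing the data. The sole reversal was Dok2 in NYPD minus NDL25, at -0.0107 (adjusted p = 0.991) with the authors' deposited ratios, where neither value was called. In YB minus NYPD the count of called members was 2 with processed signals (Shc1 and Gab2), 0 with deposited ratios, where Shc1 had no value in YB pool 1 and was not tested, and 0 without both low-Erbb2 pools. In YB minus NDL25 it was 1 with processed signals (Gab2). In YE minus NYPD it was 1 with median centring and 1 without the low-Erbb2 pools (Shc1 in both). In YB against the other single-site strains it was 0 with median centring, deposited ratios, session as a block or the low-Erbb2 pools left out. The cause was not tested. With 1 pool left out in turn the counts ran from 0 to 1 in NYPD minus NDL25, YB minus NYPD and YE minus NYPD, and were 0 in each other comparison. Shc1 in YB minus NYPD ran from -1.11 to -0.61 and stayed called only without YB pool 2 (adjusted p = 0.021). The F test over 6 strains and the NYPD contrasts could not take session as a block, since NYPD had a session of its own. Elsewhere the block was estimated only from the gap between the YC pools, because no other strain was spread over sessions. Within session 2 YB minus NDL25 called 0 members and 12 genes, and within session 1 YD minus YE called 0 members and 0 genes. Pool numbers were shared by all strains, but deviations of same-numbered pools correlated over 0.1 in 7 of 15 strain pairs (-0.172 to 0.708). The correlations were 0.46 to 0.71 among YC, YD and YE and under 0.1 in every pair with NYPD. The numbers were therefore not taken to pair the pools, although Shc1 was higher in pool 2 than in pool 1 in every strain. With the pool number as a block, Shc1 was called in the F test over 6 strains (adjusted p = 0.0279), in NYPD minus NDL25 and in YE minus NYPD, a count of 1 in each. Signal over background limits Gab2 most.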
